A study of Mus musculus with 4 samples.

Results

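The genes described here are 37 transcripts of keratinocyte differentiation and of the cornified envelope, the protein shell that replaces the plasma membrane of a dying epidermal cell. They were chosen by gene symbol from 31054 rows, the same in the 4 libraries, and each symbol matched 1 row. The members were followed through tumour cells, through the keratinocyte clusters outside the tumour class and across control and NP137 libraries. In the epidermis a keratinocyte that leaves the basal layer exchanges its basal keratins for Krt1 and Krt10. It then makes envelope precursors such as involucrin, loricrin and the small proline-rich proteins, which transglutaminases cross-link under the membrane. Kallikrein proteases, desmosomal cadherins and lipid enzymes complete the barrier and regulate the shedding of its outermost cells.

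Live cells of skin tumours were read with 10x Genomics 3' droplets in 2 control and 2 NP137 libraries. All mice carried Lgr5CreER, homozygous floxed p53 and Rosa26-YFP+/+, among other alleles. Cre driven by Lgr5, a hair follicle stem cell gene, deletes p53 and labels the cell with YFP. Controls had no stated treatment. Every mouse received tamoxifen, 2.5 mg on each of 4 days beginning at postnatal day 28, and tumours were seen at 7 to 9 weeks. NP137 is an antibody against the secreted protein netrin-1. Its dosing began 4 weeks past tamoxifen, with 10 mg/kg repeated each 2 days until death. No age at sampling is given, and the labels do not say whether each library is 1 animal. Each p-value therefore measures only the spread between these libraries, which may be technical in part. The series asks whether blocking netrin-1 holds back the epithelial-mesenchymal transition.

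After filters the libraries gave 10482, 5301, 14205 and 14513 cells in control 1, control 2, NP137 1 and NP137 2, from 69517664 to 149021188 UMIs per library. Pairs of libraries shared 14 to 52 cell barcodes, at most 0.477% of the smaller library. One date is shared by the file names of control 1 and NP137 1, while the other libraries have a later date each. NP137 1 held cells with Xist alone and cells with Y-linked UMIs alone, in the tumour and in the keratinocyte clusters. Among kinds with 50 cells or more in these clusters, control 1 and NP137 2 held cells with Xist alone. Control 2 held cells with Y-linked UMIs alone. Cell sex thus differed between libraries, the controls included, and its part in the comparisons was not tested. Of 32 clusters 5 had a YFP UMI in 76.1% to 96.4% of their cells and are called YFP-positive tumour cells (4444, 1159, 3091 and 892 cells). They were divided by cluster into an Epcam-high state, a state with Krt14 and Vim but little Epcam, and a Vim-high state. Vim-high clusters held 91.3% and 98.2% of the YFP-positive cells of the controls, and the Epcam-high cluster held 78.9% and 99.7% of those of NP137.

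The labels of the keratinocyte clusters held only in part. The basal cluster (254, 891, 2048 and 29 cells) was led by Krt15, and 23.4% of its cells had a YFP UMI. The differentiating cluster (27, 187, 729 and 74 cells) was led by Cst6, Krt6b, Calm4 and Krt16. It had the highest score for differentiation markers of all clusters, but its score for basal markers was higher still. A YFP UMI was found in 40.8% of its cells, so it mixed recombined with untagged cells and is not called normal. The members were left out of the genes used for clustering, and none of them was among the differentiation markers that named that cluster. Those markers are themselves differentiation genes, so its high member levels are still a description. A further cluster of 1689 cells, 1662 of them from control 2, had a median of 886 UMIs per cell and stayed unnamed, although Krt79 and Elovl4 were among its leading genes.

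Levels are given as CPM, the UMIs of a gene scaled to the total UMIs of the cell class. The assay counts 3' ends, so no gene length enters. Summed over the 37 members, the differentiating cluster stood at 21321, 32665, 26658 and 27323 CPM in control 1, control 2, NP137 1 and NP137 2. The basal cluster stood at 3381, 4390, 4404 and 3561 CPM, and Epcam-high tumour cells at 2022, 4031, 3563 and 4322 CPM, the second of these from 20 cells. Vim-high tumour cells stood at 234 CPM in control 1 and 283 CPM in control 2. Macrophage-like cells, taken here as a reading of free RNA, stood at 137, 338, 640 and 94.3 CPM. They held 3.73, 2.63, 2.21 and 7.15 CPM of Tgm1, against 0.662, 0.374, 2.76 and 4.14 CPM in all YFP-positive cells. Whether their Tgm1 was free RNA was not tested. The order from differentiating cluster to Epcam-high cells to Vim-high cells held in both controls. The Vim-high cells of control 2 did not exceed the macrophages of the same library, at 283 against 338 CPM.

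**Figure D1:**
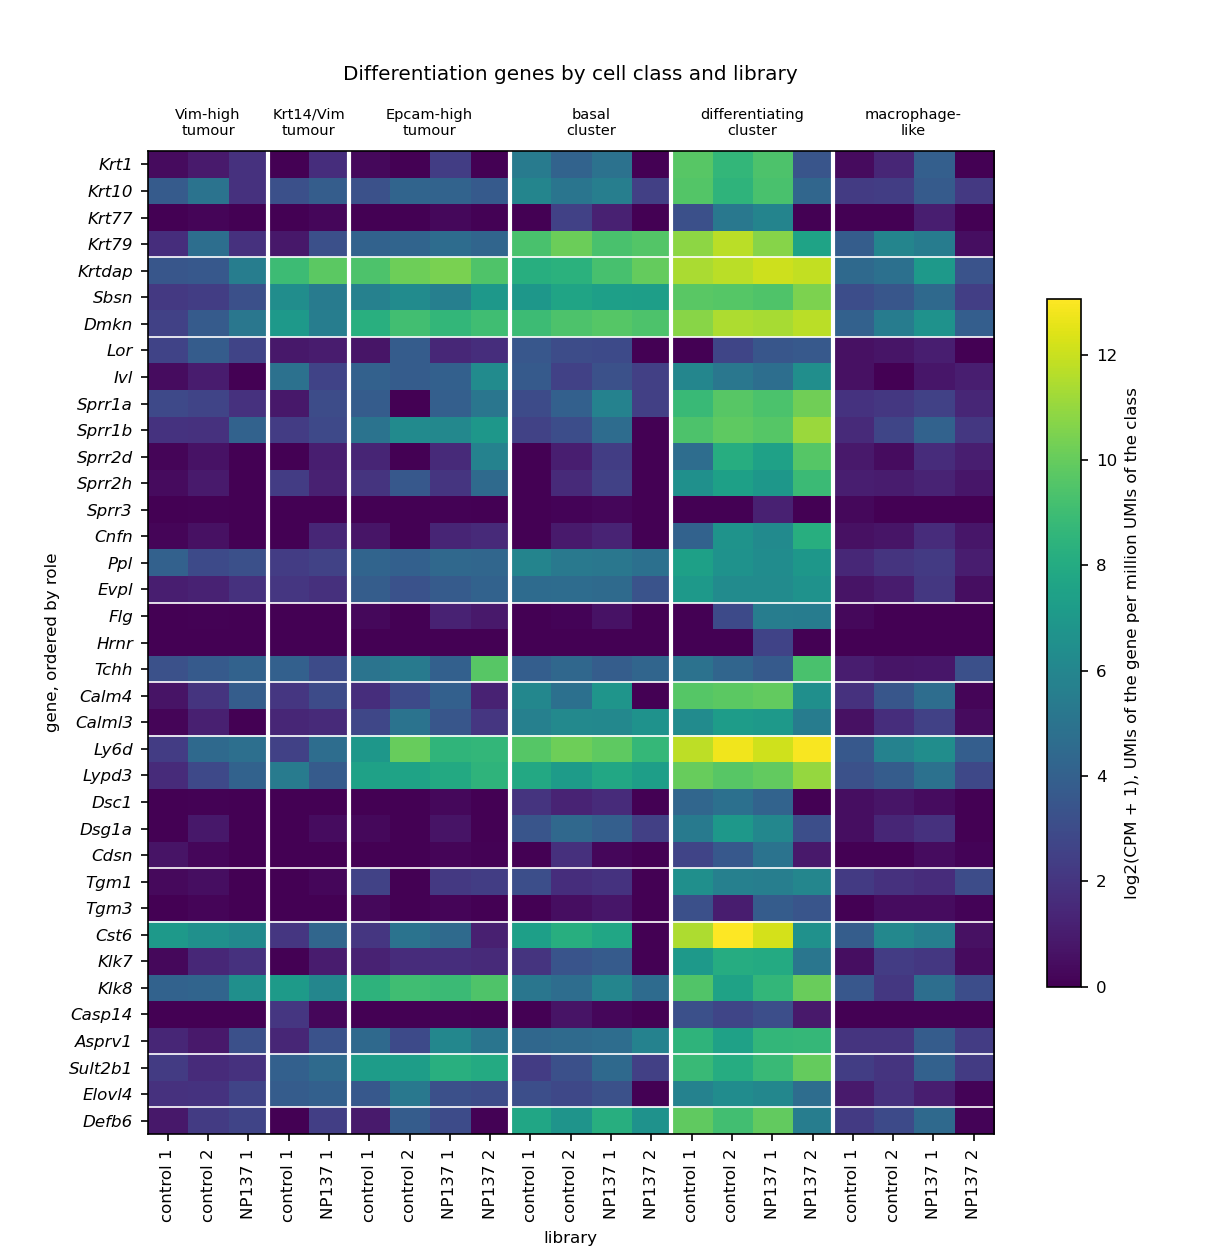
Level of each of the 37 genes as log2(CPM + 1), by cell class (column blocks) and library (columns), with classes of under 20 cells left out. The differentiating cluster holds the brightest cells, although Hrnr, Sprr3, Tgm3 and Casp14 are dark in every class and Krt1 and Krt10 are darker there in NP137 2, and the Epcam-high tumour cells share Krtdap, Dmkn, Ly6d, Lypd3, Klk8 and Sult2b1 with it.

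The suprabasal keratins were low in YFP-positive tumour cells of each library. Krt1 (chr15:101845426-101850794, GENCODE M21 on GRCm38), the type II keratin of the spinous layer, stood at 0.281, 0.903, 3.69 and 0 CPM in all YFP-positive cells of control 1, control 2, NP137 1 and NP137 2. In the differentiating cluster it stood at 808, 402, 679 and 9.73 CPM. Its partner Krt10 (chr11:99385254-99389364) stood at 11.8, 30.2, 16.1 and 12.1 CPM in YFP-positive cells. Its levels in the differentiating cluster were 759, 357, 627 and 18.6 CPM. Neither keratin separated the treatments in tumour cells, and both were low in the differentiating cluster of NP137 2 alone. Krt79, a keratin of the follicle opening and upper follicle, stood at 644, 1104, 625 and 770 CPM in the basal cluster. It stood at 15.95, 17.5, 23.7 and 18.2 CPM in the Epcam-high tumour cells, at most 3.79% of the basal cluster of the same library. Krt77 stood under 0.3 CPM in the YFP-positive cells of each library.

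Krtdap, Klk8, Sult2b1 and Lypd3 were carried by Epcam-high tumour cells at levels that overlapped or exceeded those of the basal cluster, while other secreted and surface members stood lower. Krtdap, a small secreted protein of early stratification, stood at 676, 1148, 1381 and 708 CPM in Epcam-high cells and at 296, 329, 613 and 1024 CPM in the basal cluster. Dmkn, encoded beside Krtdap and Sbsn on chromosome 7, stood at 299.9, 545, 406 and 539 CPM in Epcam-high cells against 494, 677, 793 and 678 CPM in the basal cluster. Klk8 (chr7:43797577-43803826), a serine protease of the skin, stood at 344, 540, 473 and 696 CPM in Epcam-high cells against 33.7, 24.9, 59.8 and 23.1 CPM in the basal cluster. Sult2b1, which sulphates cholesterol in the granular layer, stood at 149.954, 153, 305 and 256 CPM against 3.96, 8.02, 20.8 and 4.61 CPM. Klk8 and Sult2b1 were thus higher in Epcam-high cells than in the basal cluster of each of the 4 libraries, controls included. Lypd3, a GPI-anchored surface protein, lay between 175 and 357 CPM in Epcam-high cells and between 143 and 235 CPM in the basal cluster, ranges that overlap. Sbsn stood at 52.0, 78.7, 49.4 and 122 CPM in Epcam-high cells against 119, 197.5, 163 and 157 CPM in the basal cluster, lower in each library. Ly6d stood at 122, 1041, 369 and 400.3 CPM against 777, 1175, 908 and 415 CPM, again lower in each.

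Other members stood lower in Epcam-high tumour cells than in the keratinocyte clusters. Defb6, a beta-defensin, stood at 214, 106, 289 and 101 CPM in the basal cluster and at 0.912, 13.1, 7.02 and 0.0575 CPM in Epcam-high cells. Calm4, a calmodulin-like protein of the suprabasal layers, stood at 786, 888, 986 and 91.1 CPM in the differentiating cluster and at no more than 14.8 CPM in Epcam-high cells. The desmosomal cadherins Dsc1 and Dsg1a, the protease Klk7 and corneodesmosin (Cdsn) reached at most 2.28 CPM in Epcam-high cells. Over all 37 members, 14, 10, 11 and 21 stood higher in Epcam-high cells than in the basal cluster of control 1, control 2, NP137 1 and NP137 2, and 3, 3, 2 and 2 stood higher than in the differentiating cluster. These are differences between clusters and carry no test.

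The control and NP137 libraries were compared next over all YFP-positive cells, summed per library. A change in the share of tumour states and a change within a state cannot be told apart in such a sum. Summed and scaled with TMM factors, the members stood at 389 and 298 CPM in control 1 and 2 and at 3153 and 4929 CPM in NP137 1 and 2. The difference was 3.53 on the log2 scale, with a pooled SD within groups of 0.376 (exact 2-sided permutation test over the assignments of 4 libraries, p = 0.333, the smallest this design allows). The groups did not overlap, nor did the pair of the same file date, with 389 CPM in control 1 and 3153 CPM in NP137 1.

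Of the 37 members, 22 stood higher in both NP137 libraries than in both controls, 3 stood lower in both, and 12 overlapped. Among all 14072 genes tested in these cells 18.1% stood higher in both NP137 libraries and 40.4% lower on the same unscaled CPM. The median log2 fold change of all genes was -0.29 with library totals alone and -0.03 with TMM factors. In edgeR's quasi-likelihood test 30 members passed the filter on low counts, and 0 of them passed an adjusted p of 0.05, as did 0% of all genes in the higher and 0.00711% in the lower direction. At an unadjusted p under 0.05, 20 members were higher and 1 lower, where 10.8% of all genes were higher and 12.8% lower. DESeq2, which uses another estimate of the spread, called 20 members higher and 2 lower at an adjusted p of 0.05, beside 6.79% of its genes called higher and 9.11% lower. The filter keeps genes that are high in 1 group, so the 30 members are a selection. Krt77, Hrnr, Sprr3, Dsc1, Tgm3, Cdsn and Casp14 were too low to be tested, and Hrnr, a fused S100 protein of the granular layer, had no UMI in any YFP-positive cell.

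**Figure D2:**
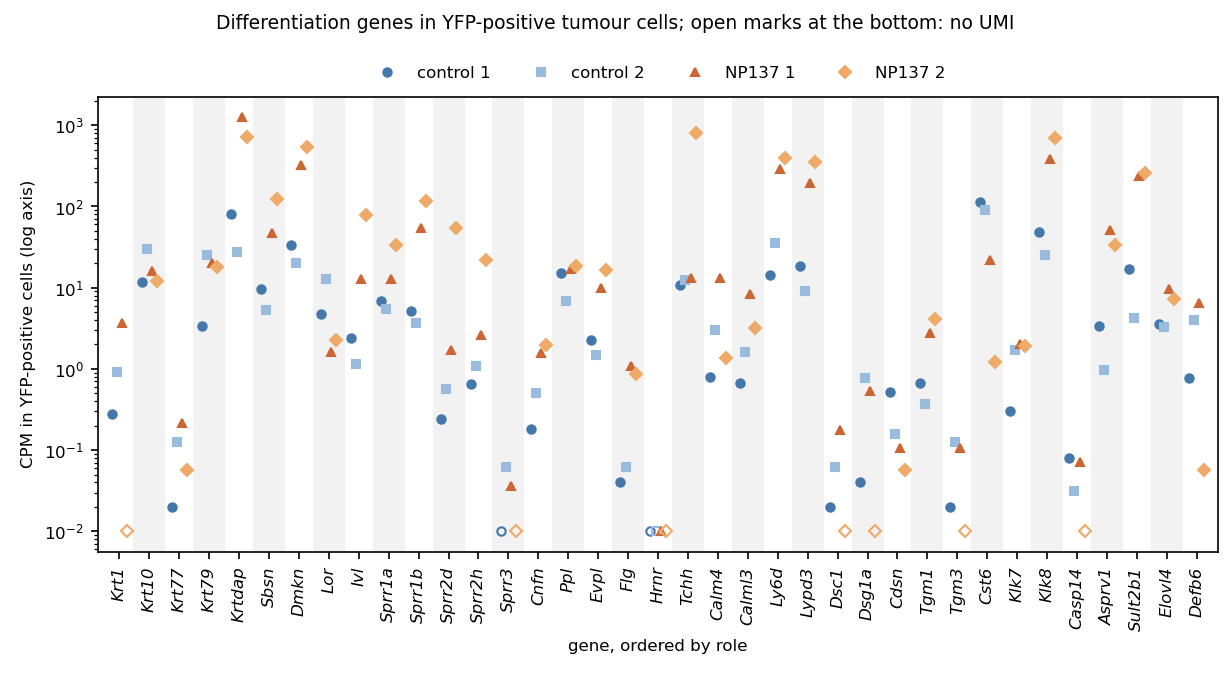
Level of each gene in YFP-positive tumour cells (CPM, log axis), 1 mark per library, genes ordered by role, with open marks for no UMI. Both NP137 libraries lie above both controls for 22 genes, Tchh is high in NP137 2 alone, and Cst6 lies lower in both NP137 libraries.

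Among the secreted proteins, Krtdap stood at 81.1 and 27.3 CPM in the controls and at 1253 and 707 CPM in NP137 YFP-positive cells, a log2 fold change of 4.39 (SE 0.69, adjusted p = 0.0792 in edgeR). Dmkn stood at 33.9 and 20.05 CPM against 324 and 539 CPM, a log2 fold change of 4.26 (SE 0.50, adjusted p = 0.0708). Sbsn, suprabasin, stood at 9.76 and 5.29 CPM against 47.4 and 122 CPM. In none of these genes did the treatments overlap in this sum over tumour states. Within Epcam-high cells each of them overlapped, with Krtdap at 676 and 1148 CPM in control and at 1381 and 708 CPM in NP137. The summed Krtdap level of control 2 was that of its macrophages, 27.6 CPM.

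Among the surface proteins, Lypd3 stood at 18.3 and 9.03 CPM in control and at 193 and 357 CPM in NP137 cells, a log2 fold change of 4.59 (SE 0.61, adjusted p = 0.0708). Ly6d, a GPI-anchored marker of stratified epithelium, stood at 14.4 and 35.6 CPM against 290.5 and 400.1 CPM. The macrophages of the same libraries held 10.97 and 53.5 CPM of Ly6d in the controls and 82.4 and 13.9 CPM under NP137. Summed over all its YFP-positive cells, control 2 thus did not exceed its own background for this gene, although its 20 Epcam-high cells held 1041 CPM. NP137 1 exceeded its background in level.

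Of the proteases, Klk8 stood at 48.0 and 25.1 CPM in control and at 379 and 696 CPM in NP137 cells, a log2 fold change of 4.14 (SE 0.57, adjusted p = 0.0723). Asprv1, the aspartic protease that processes filaggrin, stood at 3.35 and 0.965 CPM against 51.7 and 33.2 CPM. Sult2b1 stood at 17.02 and 4.23 CPM against 240.1 and 256 CPM, a log2 fold change of 4.77 (SE 0.79, adjusted p = 0.0813). Within the pair of the same date the log2 ratio of NP137 1 to control 1 was 3.95 for Krtdap, 3.40 for Lypd3, 2.98 for Klk8 and 3.82 for Sult2b1.

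The envelope precursors stood lower than Krtdap, Dmkn and Klk8 in each library. Ivl, Sprr1b and Sprr2d were higher in NP137 2 than in NP137 1. Ivl, involucrin (chr3:92570902-92573735), had 2.39 and 1.15 CPM in the controls, 12.6 CPM in NP137 1 and 77.6 CPM in NP137 2. Sprr1b stood at 5.18 and 3.70 CPM against 53.6 and 118 CPM, a log2 fold change of 4.54 (SE 0.57, adjusted p = 0.0708). Sprr2d stood at 0.241 and 0.560 CPM against 1.72 and 55.1 CPM. The Sprr genes lie as near copies in the epidermal differentiation complex, and the rule for reads that match several of them is not given in the sources used here, so single Sprr values are uncertain. The envelope scaffold plakin Evpl stood at 2.29 and 1.49 CPM against 10.03 and 16.5 CPM, whereas its relative Ppl stood at 15.3 and 6.88 CPM against 16.8 and 18.7 CPM, just above the controls.

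Tchh, trichohyalin, an S100-fused protein of the inner root sheath, separated 1 library from the rest. It stood at 10.7 and 12.6 CPM in control, 13.2 CPM in NP137 1 and 814 CPM in NP137 2. In the differentiating cluster of NP137 2 it stood at 643 CPM, against 29.7, 18.3 and 11.8 CPM in control 1, control 2 and NP137 1. The macrophages of NP137 2 held 8.27 CPM. Within that differentiating cluster Tchh stood at 742 CPM in cells with a YFP UMI and at 31.6 CPM, from 5 UMIs, in the others. The basal cluster of NP137 2 held 18.5 CPM, from 29 cells. High Tchh was therefore seen in YFP-positive tumour cells and in YFP-tagged differentiating cells of NP137 2. Its log2 fold change of 5.47 (SE 1.90) rests on that library.

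Cst6 and Lor went the other way. Cst6, cystatin M/E, an inhibitor of legumain and cathepsins in the barrier, stood at 113 and 91.2 CPM in control and at 22.0 and 1.21 CPM in NP137 YFP-positive cells (log2 fold change -2.93, SE 1.21, adjusted p = 0.235). Its control signal lay in Vim-high cells, at 127 and 92.1 CPM. The macrophages of the same libraries held 13.4, 66.3, 48.9 and 0.526 CPM of Cst6, and at equal depth its share of cells exceeded background in control 1 alone. Lor, loricrin, stood at 4.76 and 12.8 CPM in control and at 1.61 and 2.24 CPM in NP137 cells, against 0.518, 0.657, 1.103 and 0 CPM in macrophages (log2 fold change -1.90, SE 0.64, adjusted p = 0.170).

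Cells were then thinned to 2000 UMIs so that shares of cells with a UMI could be compared at equal depth. This left out 239, 20, 209 and 31 YFP-positive cells of control 1, control 2, NP137 1 and NP137 2, whose median depths were 8819, 27236, 8634 and 18561 UMIs. Macrophages had median depths of 3880, 9178, 2085 and 5664 UMIs. Exact 95% binomial intervals cover counting error only. The controls held Krtdap in 7.06% and 4.48% of their tumour cells and NP137 in 70.8% and 46.5%, against 4.28%, 7.64%, 21.3% and 1.94% of macrophages. Without thinning the tumour shares were 16.4%, 26.2%, 86.5% and 74.9%. Over all its YFP-positive cells control 2 thus did not exceed background for Krtdap, although its 20 Epcam-high cells held 1148 CPM. Klk8 was found in 5.26% and 4.21% against 43.6% and 67.5% (without thinning 13.5%, 16.9%, 68.5% and 94.1%), with 2.00%, 0.332%, 5.06% and 1.84% of macrophages. Tchh was found in 56.0% of the cells of NP137 2 and in 1.88% to 2.81% of those of the other libraries (without thinning 84.8% against 8.33% to 23.1%).

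Of the 37 members, 20 were found in a larger share of cells in both NP137 libraries than in both controls, 2 in a smaller share, and 15 overlapped, where 18.3% of the 14072 genes tested were higher and 37.7% lower. Without thinning 14 members were higher, 4 lower and 19 overlapped, where 6.91% of these genes were higher and 29.4% lower. The exact permutation p of a single gene was never under 0.333, the smallest possible. The interval lay wholly above that of the macrophages for 8, 4, 14 and 19 members in control 1, control 2, NP137 1 and NP137 2. In NP137 1 the intervals for Krt1, Cst6 and Defb6 lay below those of the macrophages, at 0.625%, 4.27% and 1.18% of YFP-positive cells against 2.30%, 10.1% and 3.07%. These 3 shares thus did not exceed the macrophage level. In control 1 the interval for Tgm1 lay below that of the macrophages. The macrophages of NP137 1 were shallower before thinning, at a median of 2085 against 8634 UMIs. The effect of this on their share of free RNA was not tested. Lor and Krt10 were above background in both controls. For Krt10 the shares were 2.54% and 4.21% against 0.827% and 0.997% of macrophages.

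**Figure D3:**
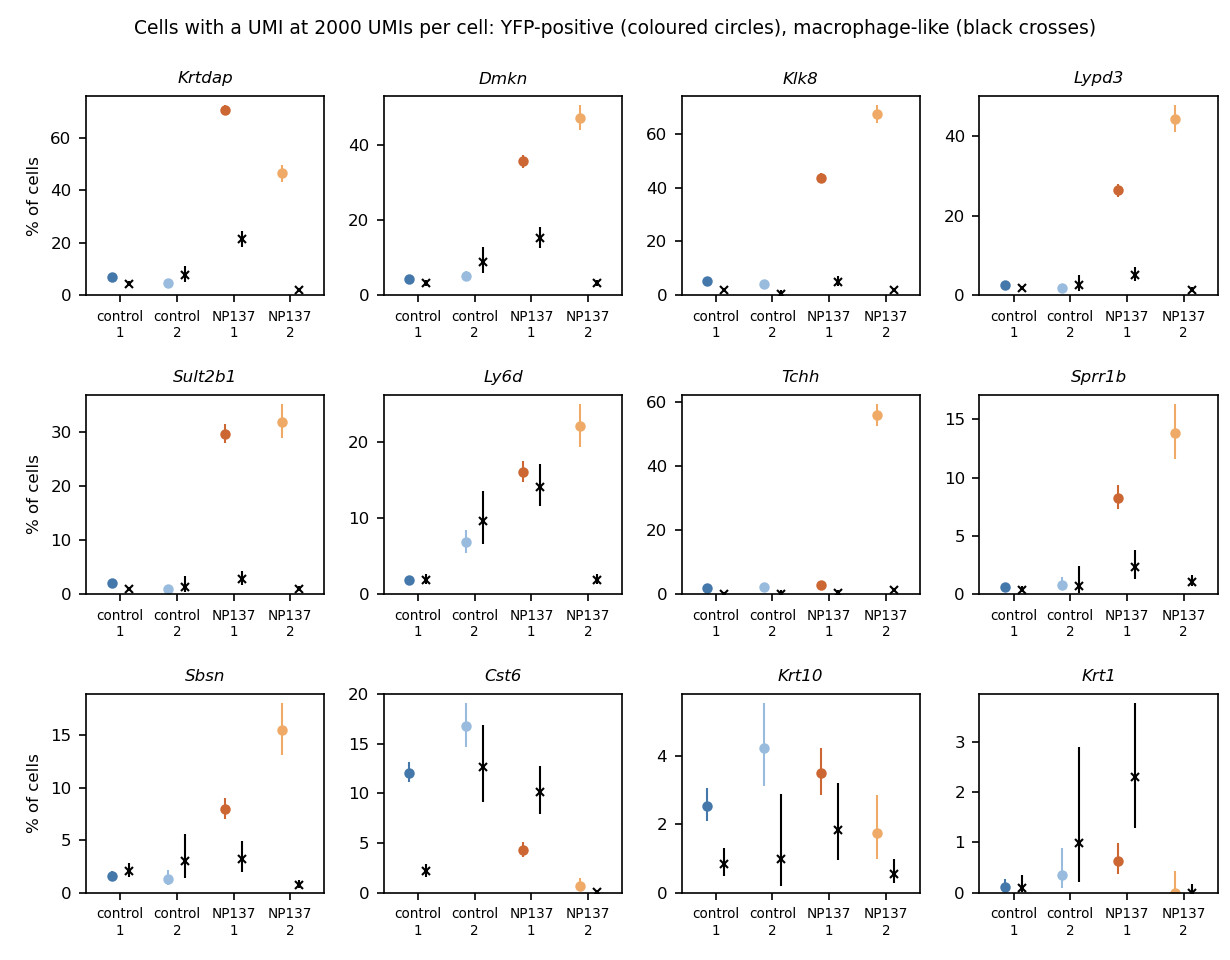
Percentage of cells with at least 1 UMI of 12 genes after thinning to 2000 UMIs per cell, in YFP-positive cells (coloured circles) and macrophage-like cells (black crosses), by library, with exact 95% binomial intervals. Krtdap, Klk8 and Sult2b1 lie far above background in both NP137 libraries, Tchh in NP137 2 alone, while Cst6 is highest in the controls.

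The number of members found in the same cell differed between libraries. At 2000 UMIs, 5 or more members were found in 0.499%, 0.527%, 16.8% and 33.2% of the YFP-positive cells of control 1, control 2, NP137 1 and NP137 2, and in 15.03%, 20.6%, 24.6% and 10.7% of the basal cluster. Tumour cells of NP137 2 thus lay above its basal cluster, which had 28 cells at this depth, and those of the other libraries lay below theirs. In the differentiating cluster the shares were 81.5%, 77.7%, 82.5% and 95.8%. Without thinning they were 5.96%, 43.3%, 62.0% and 89.0% in YFP-positive cells and 22.4%, 71.5%, 32.2% and 44.8% in the basal cluster. Tumour cells of NP137 1 then also lay above its basal cluster, but at unequal depth, with medians of 8634 against 2219.5 UMIs. Thinning had left out 916 of the 2048 basal cells of that library. Of the 239 YFP-positive cells of NP137 1 with an Sprr1b UMI, 77.4% also held Krtdap and 52.7% Klk8, but 2.93% held Krt10. In NP137 2, 59.7% of 119 such cells held Krtdap, 64.7% Klk8, 51.3% Tchh and 1.68% Krt10. Among all YFP-positive cells at this depth, NP137 1 held Krtdap in 70.8%, Klk8 in 43.6% and Krt10 in 3.50%. NP137 2 held Krtdap in 46.5%, Klk8 in 67.5%, Tchh in 56.0% and Krt10 in 1.74%. The Krt10 shares of Sprr1b cells were thus near those of all YFP-positive cells, as were Klk8 and Tchh in NP137 2. Among the 241 Sprr1b cells of the differentiating cluster of NP137 1, 29.0% held Krt10. Without thinning Krt10 was found in 13.4% of 656 Sprr1b tumour cells of NP137 1 and in 20.5% of 312 of NP137 2, against 40.4% and 25.4% in the differentiating clusters of these libraries. The gap was thus smaller at full depth.

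Members within Epcam-high cells can be read in both sexes of cell in NP137 1. Its 451 Epcam-high cells with Xist alone and 821 with Y-linked UMIs alone held 1803 and 1293 CPM of Krtdap, 402 and 495 CPM of Klk8, 182 and 346 CPM of Sult2b1 and 4.01 and 2.96 CPM of Krt1. In the differentiating cluster of the same library Krt10 stood at 1022 CPM in cells with Xist alone and at 131 CPM in those with Y-linked UMIs alone. Other members of the Epcam-high cells differed more. Asprv1 stood at 23.3 and 78.5 CPM, Sprr2d at 5.89 and 1.02 CPM and Sprr2h at 9.10 and 1.36 CPM, the Sprr2 values from 9 to 34 UMIs. These are values of 1 library and carry no test.

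The keratinocyte clusters outside the YFP-positive class were compared in the same way. Neither the basal nor the differentiating cluster had 50 cells in each library, so the clusters were summed, a step chosen after seeing the data. The differentiating share of that sum differed between libraries, from 27 of 281 cells in control 1 to 74 of 103 in NP137 2, and its part in the result was not tested. In edgeR 0 of 35 tested members passed an adjusted p of 0.05, as did 0% of all 11492 genes in either direction. At an unadjusted p under 0.05, 10 members were higher and 0 lower, where 2.79% of all genes were higher and 2.9% lower. DESeq2 called 3 members higher and 0 lower, beside 0.164% and 0.0156% of its genes. Asprv1 had a log2 fold change of 1.81 (SE 0.44) and Krtdap of 1.53 (SE 0.41), both with an adjusted p of 0.767.

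In all sorted cells of a library, 0 of 35 tested members passed by edgeR, as did 0% of all 16618 genes in either direction. There 5 members were higher at an unadjusted p under 0.05, and 0 lower, where 3.18% of all genes were higher and 3.32% lower. DESeq2 called 3 members higher, beside 0.953% of its genes. The direction depended on single libraries. Without control 2 the median log2 fold change of the members was 2.66, against 0.76 in all libraries. It was -0.58 without NP137 1, -0.03 without control 1 and 1.15 without NP137 2. Klk8 had the smallest p, with a log2 fold change of 2.46 (SE 0.38, adjusted p = 0.763).

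The difference of the NP137 effect between YFP-positive cells and these keratinocytes was tested with the library as a block. By edgeR's quasi-likelihood test 5 members passed in the direction of a larger NP137 effect in tumour cells and 0 in the other, beside 0.41% and 0.465% of 14405 genes. They were Ivl (3.39 on the log2 scale, SE 0.39, adjusted p = 0.0257), Calml3 (2.39, SE 0.34, adjusted p = 0.0438), Ly6d (2.98, SE 0.43, adjusted p = 0.0446), Lypd3 (3.05, SE 0.44, adjusted p = 0.0450) and Evpl (2.35, SE 0.35, adjusted p = 0.0455). At an unadjusted p under 0.05, 18 were higher and 2 lower, where 6.63% and 7.23% of all genes were. With no library block 0 passed, and without NP137 2 none did. On simulated data this test called more unchanged genes than its threshold allows, so these calls are weak.

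YFP-tagged and untagged cells of the differentiating cluster were compared within each library, 13 and 14 cells in control 1, 40 and 147 in control 2, 306 and 423 in NP137 1 and 56 and 18 in NP137 2. This split was also chosen after seeing the data. Cells with a YFP UMI were deeper, with medians of 14747, 23111, 5814.5 and 15313.5 UMIs against 6298, 17371, 3947 and 9861. A cell without a YFP UMI may still be recombined. Cells with a YFP UMI held less Trp53, at 7.80, 37.1, 10.7 and 5.14 CPM against 52.9, 59.5, 43.9 and 38.0 CPM, and more Cdkn2a, at 448, 140, 173 and 175 CPM against 106, 22.4, 38.2 and 12.7 CPM, from as few as 2 UMIs in a library. Both went the same way in 4 of 4 libraries.

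Of the 35 members tested in this split 1 rose and 1 fell. Klk8 stood at 920, 288, 626 and 1181 CPM in tagged cells against 282, 146, 134 and 424 CPM in untagged cells. It rose by 1.56 on the log2 scale (SE 0.19, adjusted p = 0.000674 in edgeR with the library as a block, higher in 4 of 4 libraries). Sprr2d stood at 19.5, 213, 139 and 681 CPM in tagged cells against 35.2, 308, 228 and 1405 CPM in untagged cells. It fell by 0.79 on the log2 scale (SE 0.17, adjusted p = 0.0399, lower in 4 of 4 libraries). No other of the 35 tested members passed, beside 0.681% of 8224 genes called higher and 0.389% lower. At an unadjusted p under 0.05, 7 members were higher and 5 lower, where 6.04% and 5.89% of all genes were. Simulated data of this design also gave more unchanged genes called than the threshold allows. With a Cdkn2a UMI in place of the YFP UMI Sprr2d stood at 0.45 on the log2 scale, the opposite direction, while Klk8 stood at 1.96 (adjusted p = 0.0106). Without NP137 1 neither gene passed.

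Ivl, Krtdap, Klk8, Sult2b1 and Tgm1 were higher in tagged cells of 4 of 4 libraries, where 14.1% of all genes were. Sprr2d, Defb6, Elovl4, Calm4, Krt1, Krt79 and Dsg1a were lower in 4 of 4, where 10% of all genes were. Krt1 stood at 50.7, 319, 294 and 0 CPM in tagged cells against 2520, 432, 1132 and 69.6 CPM in untagged cells. Sult2b1 stood at 624, 316, 740 and 1110 CPM against 106, 248, 128 and 329 CPM. The gap in both genes was smallest in control 2, where Krt10 went the other way, at 423 CPM in tagged cells against 332 CPM in untagged ones.

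**Figure D4:**
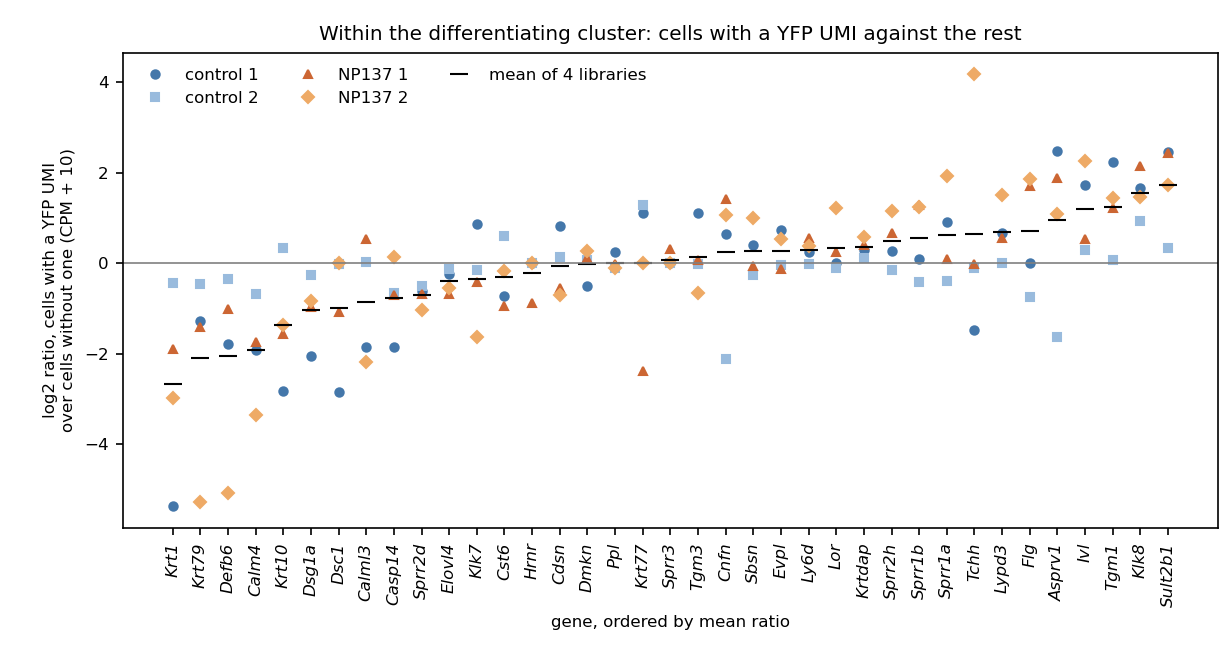
Within the differentiating cluster, the log2 ratio of the level in cells with a YFP UMI to that in cells without one, on CPM + 10, for each gene and library, with the mean of the 4 libraries as a bar. Krt1, Krt79, Defb6 and Calm4 lie below 0 and Klk8 and Sult2b1 above 0 in 4 of 4 libraries, with control 2 nearest to 0 for these genes.

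Promoter sequences are shown for 4 members, Krtdap and Klk8 as carried by the Epcam-high tumour cells, Ivl for the difference of effects and Sprr2d for the split of the differentiating cluster. RefSeq windows on GRCm38.p6 were at hand for 29 of the 37 members. Each window below holds the 250 bases before the annotated start, 5′ to 3′ on the gene's strand, with matches to the AP-1 motif in capitals. The motif was searched as TGAGTCA on the gene's strand, and its reverse complement was read as TGACTCA. AP-1 is the Fos and Jun dimer, known to act on epidermal differentiation genes.
The windows are chr7:30787655-30787904 (plus strand) for Krtdap, chr3:92573736-92573985 (minus strand) for Ivl, chr3:92338890-92339139 (plus strand) for Sprr2d and chr7:43797327-43797576 (plus strand) for Klk8.
Krtdap: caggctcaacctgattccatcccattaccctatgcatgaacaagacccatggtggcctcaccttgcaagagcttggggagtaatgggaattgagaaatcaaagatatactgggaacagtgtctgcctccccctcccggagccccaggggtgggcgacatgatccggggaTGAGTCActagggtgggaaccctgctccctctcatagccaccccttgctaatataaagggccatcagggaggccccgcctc
Ivl: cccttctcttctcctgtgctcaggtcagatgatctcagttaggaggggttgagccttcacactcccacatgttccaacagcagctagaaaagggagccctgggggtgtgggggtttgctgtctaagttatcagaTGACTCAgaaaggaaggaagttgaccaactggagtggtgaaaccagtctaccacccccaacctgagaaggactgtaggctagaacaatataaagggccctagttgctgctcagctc
Sprr2d: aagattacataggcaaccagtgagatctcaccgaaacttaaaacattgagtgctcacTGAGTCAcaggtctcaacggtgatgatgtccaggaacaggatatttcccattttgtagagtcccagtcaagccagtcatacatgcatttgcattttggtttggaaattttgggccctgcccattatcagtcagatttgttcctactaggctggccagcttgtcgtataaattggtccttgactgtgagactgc
Klk8: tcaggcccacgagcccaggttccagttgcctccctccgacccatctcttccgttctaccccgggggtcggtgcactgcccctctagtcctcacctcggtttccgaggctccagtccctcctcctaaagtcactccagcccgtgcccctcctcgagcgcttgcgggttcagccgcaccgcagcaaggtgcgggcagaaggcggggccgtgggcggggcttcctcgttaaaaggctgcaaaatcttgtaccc
The match began 81 bases before the start of Krtdap, 116 before that of Ivl and 193 before that of Sprr2d, and Klk8 held none. Of the 29 members 8 held a match (27.6%), Krtdap, Dmkn, Lor, Ivl, Sprr1a, Sprr2d, Sprr2h and Sult2b1, against 5.16% of 27025 genes. Some genes have several windows and count once if any matches. The Grainyhead-like motif AACCNGTT (AACNGGTT on the other strand), of a family of epithelial transcription factors, matched 0 of 29 members and 2% of all genes. A match is a description of these letters and no site of binding. Matches stood both in members that Epcam-high tumour cells carry, such as Krtdap and Sult2b1, and in Lor, which they do not.

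Of the gene lists around these members, none had a gene that passed in YFP-positive cells by edgeR's quasi-likelihood test. Over all 14072 genes tested there, 10.8% were higher and 12.8% lower at an unadjusted p under 0.05. DESeq2 called 6.79% of its genes higher and 9.11% lower. The stress keratins of injured and hyperplastic skin had 4 of 4 tested genes higher at an unadjusted p under 0.05 (4 by DESeq2), and Krt16 stood at 44.3 and 27.99 CPM in control and at 653 and 608 CPM in NP137 cells. Of other envelope and late epidermal genes 16 of 55 were tested, and 7 were higher and 0 lower unadjusted (6 and 0 by DESeq2). Barrier lipid genes had 8 higher and 1 lower of 16 (6 and 1 by DESeq2), among them Fabp5, a fatty acid carrier, at 210.3 and 126 CPM against 1506 and 1979 CPM. Regulators of keratinocyte differentiation had 22 higher and 6 lower of 45 (20 and 4 by DESeq2). Ovol1 stood at 4.12 and 2.27 CPM against 34.04 and 21.4 CPM, and Gata3 at 25.0 and 32.6 CPM against 2.36 and 1.49 CPM. Basal layer genes had 9 higher and 4 lower of 21 (9 and 3 by DESeq2), and Krt14 stood at 1253 and 283 CPM against 10516 and 12618 CPM. Inner root sheath and hair genes had 3 higher and 1 lower of 8 (4 and 2 by DESeq2). The unadjusted lower counts of the lipid, regulator and hair lists were near or under the share of all genes. Mesenchymal genes had 0 higher and 11 lower of 13 (0 and 12 by DESeq2). The medians of the log2 fold changes were 3.81 for stress keratins, 2.46 for other envelope genes, 1.15 for lipid genes, 1.41 for regulators, 0.91 for basal genes, 1.76 for hair genes and -3.61 for mesenchymal genes, against -0.03 over all genes and 3.02 over the 30 members tested.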

How the data were processed

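RNA of live-sorted tumour cells was counted by droplet in 4 libraries. The deposited UMI counts per gene and barcode were made by the authors with 10x software, version 3.0.2 per the file headers. The submitters' processing notes name the build mm10 and Seurat 3.1.5. One allele shared by all mice is not reported here. Aligner settings and the rule for cell calling were not found in the labels or headers. Barcodes needed 200 genes or more and less than 20% mitochondrial UMIs. The barcodes of highest doublet score, 0.8% per 1000 barcodes, were removed (1195, 378, 2412 and 2401). Clustering used 2000 variable genes without the members, 30 components, 15 neighbours and Leiden resolution 1. A cluster was YFP-positive where 50% of its cells or more held a YFP UMI, and 100 CPM of Epcam and 1000 CPM of Krt14 divided the states.

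Sums of UMI counts by library and class were tested with edgeR's quasi-likelihood test (robust, TMM, filterByExpr), 2-sided, with Benjamini-Hochberg adjustment over all genes at 0.05. Classes under 50 cells in a library were not tested between treatments; the split by YFP UMI, within libraries, has no such minimum and includes classes of 13 to 40 cells. The members and lists were chosen with earlier results of these data known. All members may be named, and of each list the 3 genes of smallest p. The sum of keratinocyte clusters and the split by YFP UMI were added after seeing the data. Alternatives were DESeq2, its size factors, library totals alone, no filter, each library left out, the sample number as a block, stricter cells (500 genes, 10% mitochondrial UMIs), doublets kept, resolution 2, members kept in the clustering, tumour cells defined by YFP plus Cdkn2a UMIs, and thinning to 1000 UMIs or none. The main edgeR comparisons were also run on counts simulated from their own spread. In YFP-positive cells 0% of simulated log2 changes of 1, 15.5% of those of 2 and 75.4% of those of 4 were recovered. An absence of calls there therefore carries little weight. Same-numbered samples did not deviate together (correlations 0.0289, -0.174 and -0.0705 in YFP-positive cells, all cells and keratinocytes). Positions are from GENCODE M21 and promoters from RefSeq. Python 3.11.15, scanpy 1.11.5, leidenalg 0.10.2, R 4.3.3, edgeR 4.0.16 and DESeq2 1.42.0 were used.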

Additional observations from a re-analysis of the deposited data

Results flagged for a closer look

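The NP137 effect was compared between YFP-positive tumour cells and the keratinocyte clusters outside that class. By edgeR's test of that difference with the library as a block, 5 members passed. The difference on the log2 scale was 3.39 for Ivl, 2.39 for Calml3, 2.98 for Ly6d, 3.05 for Lypd3 and 2.35 for Evpl, each higher in tumour cells. With no library block 0 members passed. On simulated data the test called more unchanged genes than its threshold allows, so these calls are weak. The YFP-positive sum held 91.3% and 98.2% Vim-high cells in the controls and 78.9% and 99.7% Epcam-high cells under NP137, and the part of this shift in the differences was not tested. Within Epcam-high cells control 1, control 2, NP137 1 and NP137 2 overlapped for Ly6d (122, 1041, 369 and 400.3 CPM), Calml3 (5.93, 30.6, 10.2 and 3.22 CPM), Evpl (13.2, 8.75, 12.3 and 16.5 CPM) and Ivl (15.5, 13.1, 14.97 and 77.7 CPM). For Lypd3 both NP137 libraries lay above the controls (175, 188, 246 and 357 CPM), the second control with 20 cells. Without NP137 2 none of the 5 passed, and without NP137 1 only Ivl did. The keratinocyte sum of NP137 2 held 103 cells, 74 of them from the differentiating cluster. Of these 74 cells, 56 had a YFP UMI, so this reference was recombined in part. The part of that sum in these differences was not tested.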

How the results depend on the processing

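With DESeq2 22 members passed in YFP-positive cells, 3 in all cells and 3 in keratinocytes, and 2256 genes passed in YFP-positive cells, where edgeR called 1. With no filter on low counts 9 members and 1222 genes (5.61%) passed in YFP-positive cells, 7 members in keratinocytes (0.854% of genes), 19 for the difference of effects (6.44%) and 9 in the split by YFP (2.21%). Leaving out each library in turn gave 0 to 10 members and 0 to 427 genes in YFP-positive cells, 0 to 14 members in keratinocytes, 0 to 20 for the difference of effects and 0 to 13 for the split. In YFP-positive cells 7 members and 427 genes (2.91%) passed without control 1 and 10 members and 308 genes (2.03%) without NP137 1, while 0 passed without control 2 or NP137 2. In keratinocytes 14 members passed without NP137 1, 10 higher and 4 lower (2.98% of genes). For the difference 20 members passed without control 1 (10.6% of genes), 19 without control 2 (5.43%), 1 without NP137 1 (0.716%) and 0 without NP137 2 (0.182%). In the split 13 passed without control 2, 8 higher and 5 lower (4.84%), 1 without control 1 (0.373%) and 0 without NP137 1 (0.0449%). Library totals alone gave 2 genes in YFP-positive cells and 1 member in the split. The count of genes in YFP-positive cells was 0 with doublets kept, at resolution 2 and with a YFP and a Cdkn2a UMI. The difference of effects gave 0 members with no library block. With a Cdkn2a UMI in place of YFP the split gave 9 members (1.84% of genes), with Sprr2d at 0.45 and Elovl4 at 0.22, both reversed. The summed log2 difference of 3.53 moved to 3.06 with a YFP and a Cdkn2a UMI and to 2.27 at resolution 2, where the differentiating cluster joined the tumour cells. The cause of the other changes was not tested. With the sample number as a replicate block 0 genes and 0 members passed in YFP-positive cells, and the block changed no other call; with crossed numbers, chosen after seeing the data, 0 genes passed there and 24 genes but 0 members in keratinocytes. The basal cluster could not be tested under any setting. The differentiating cluster could be tested only with doublets kept, and there 0 of 35 members passed by edgeR. At an unadjusted p under 0.05, 2 of the 35 members passed, beside 523 of all 10499 genes. Depth limits the members at or under a few CPM in tumour cells.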
